A study of Mus musculus with 4 samples.

Results

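Hearts without a change in Mybpc3 were available from mice of 2 strain labels, and their RNA was compared gene by gene. Mybpc3 codes for a heart-specific protein of the thick filament that binds myosin. The library called control came from mice labelled control with the strain label FvB/N, and the library called NTG came from nontransgenic mice labelled C57BL/6. These are 2 of the 4 libraries of a study of Mybpc3 heart disease models. The other 2 libraries, used for reference only, came from mice carrying a transgene for a 25-bp variant of MYBPC3 (dC10mut, C57BL/6) and from tt mice (FvB/N), which the study calls hypertrophic and dilated models. All mice were 12 weeks old, and each library was made from 3 hearts combined. The labels used here give no sex, substrain, transgene promoter or relation between the control mice and the mutant mice of the same label. With 1 pooled library per group, strain, colony, pool and library preparation cannot be told apart, no p-value is given, and every interval covers counting error only.

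FVB/N and C57BL/6 are inbred mouse strains that differ by sequence variants throughout the genome and by many heart traits. FVB/N is much used for making transgenic mice, and C57BL/6 is the strain of the mouse reference genome. A control of another strain label is therefore a yardstick for how far healthy hearts of a study can lie apart before any disease gene is considered.

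The values were raw read counts per transcript, summed over the transcripts of a gene symbol. The totals were 170543 counts (NTG), 176633 (control), 187365 (dC10mut) and 186420 (tt), so that 1 count equalled between 5.34 and 5.86 CPM (counts scaled to an equal library size). A count of 0 allowed up to 3 counts, or 17.6 CPM in NTG and 17.0 CPM in control. Of 8126 genes with a count in either control library, 2063 had at least 10 counts in one of them, and these held 90.8% of the counts in NTG and 90.5% in control. A difference between the libraries was counted when a gene's CPM ratio was at least 2-fold and the exact 95% counting interval excluded equality.

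The depth decided which differences could be seen. A gene with 10 counts in NTG had to reach 23 counts in control to be counted as higher, or drop to 2 to be counted as lower. At 100 counts in NTG these limits were 208 and 51, and at 500 counts they were 1036 and 258. A gene with 0 counts in NTG needed 10 counts in control. Below the minimum, 168 genes had a larger count of exactly 9, and just inside it 174 genes had exactly 10, of which 18 met the rule.

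The annotation set a further limit. Exons of 1025 of the 2063 genes (49.7%) lie opposite an exon of another gene, and whether the counting kept the strands apart is not given in the sources used here. Several of the largest rows belong to such partners of heart genes. Map3k15, a kinase gene, held 11983 counts in NTG and 12362 in control, and it lies opposite Pdha1, the pyruvate dehydrogenase subunit, which held 121 and 150. The noncoding gene A930016O22Rik held 7272 and 6674 counts opposite the muscle creatine kinase gene Ckm, with 342 and 309. Reads of such a gene and its partner cannot be told apart, and the partner is named beside each such gene here. Transcripts with an opposite-strand exon, 9257 of 41449, held 69.1% of the counts in NTG and 67.4% in control. The labels' protocols name a strand-keeping kit. Whether the counting took the opposite strand was not tested, for genes with or without such an exon. Coding genes with a single transcript in the files held a count in 47.9% of cases against 14.7% of those with 2 or more, so a 0 for a gene such as Myh6, Tnnt2, Myl3 or Mb, which heart muscle makes in abundance, was not read as absence.

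The tissue label was checked against marker genes. Of 12 cardiomyocyte markers, 9 had a count in a control library, and their summed counts were 4891 in NTG and 5645 in control. Markers of red blood cells, lung epithelium and thymus were at 0 in both, which was not read as absence. The red blood cell genes Hba-a1 and Hbb-bs have 1 transcript each in the files and were at 0 in every library. Of the sex-linked genes, the Y-linked helicase Ddx3y had 1 count in NTG and 14 in control, while it was at 0 in dC10mut and tt. Xist and Tsix, which overlap on opposite strands of the X chromosome, were at 0 in both control libraries, and Tsix held 147 counts in dC10mut and 159 in tt. Ddx3y was thus higher in control than in NTG by the rule (log2 3.76). Its counts were seen in the control libraries, and Xist and Tsix counts in the mutant libraries. The part of these genes in the other differences was not tested.

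Between the control hearts most genes lay close together, and the differences were spread over many modestly expressed genes. Of 2063 genes, 183 (8.87%) met the rule, 118 higher in control (5.72%) and 65 lower (3.15%). Across the 2058 genes with a count in both libraries, log2 CPM correlated with Pearson r = 0.89, a description across genes that are not independent. Among the 309 genes with at least 100 counts, 96.8% lay within 2-fold, the median absolute log2 ratio was 0.23, and 10 met the rule. Of the 183 genes, 71 had fewer than 20 counts in both libraries. In pooled whole hearts, fewer cells of a type and less RNA per cell cannot be told apart, which holds for every cell-type gene named here.

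**Figure D1:**
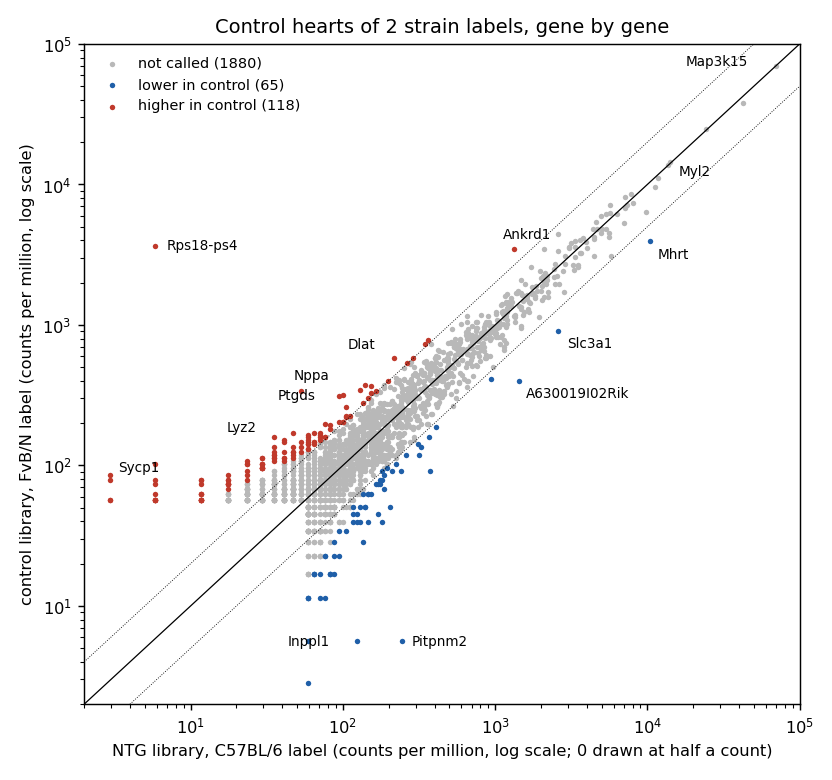
CPM of each of 2063 genes in NTG (x axis) and control (y axis), both on log scales, with equality as a solid line and 2-fold as dotted lines; 118 genes higher in control are red and 65 lower are blue. Abundant genes such as Map3k15 and Myl2 lie on the line, while Ankrd1, Mhrt and Slc3a1 leave it at high counts and Rps18-ps4 stands alone on the left.

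The balance of higher and lower genes depended on the scaling. Scaling by library totals gave 64.5% of the differing genes as higher in control, and TMM scaling, which moves every log2 ratio by -0.13, gave 83 higher and 95 lower (46.6% higher). The balance also depended on the class of gene. Genes without an opposite-strand exon had a median log2 ratio of 0.21, with 109 of 1038 meeting the rule (10.5%), 87 higher (8.38%) and 22 lower (2.12%). Genes with one had a median of -0.03, with 74 of 1025 (7.22%), 31 higher (3.02%) and 43 lower (4.2%). The median over all genes was 0.10, and list medians below are to be read against these values.

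**Figure D2:**
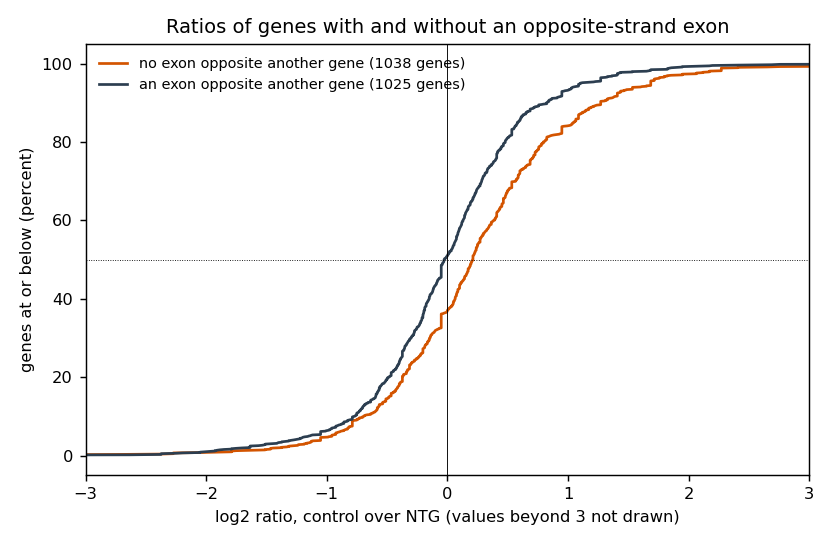
Cumulative share of genes (y axis, percent) at or below each log2 ratio of control over NTG (x axis) for genes without and with an exon opposite another gene. The curve without such an exon lies to the right, with 63.2% of its genes above 0 against 49.0% of the other class.

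Ankrd1 and Nppa, genes that strained heart muscle induces, were higher in control than in any other library. Ankrd1, a stretch-responsive repressor and sarcomere-associated protein also called CARP, had 227 counts in NTG and 609 in control, beside 196 in dC10mut and 321 in tt. The control library thus lay above even the dilated-model library of its own strain label. The ratio of control to NTG was 2.59-fold (log2 1.37, interval 1.15 to 1.60). Nppa, which encodes atrial natriuretic peptide, a hormone made mainly by the atria and induced in strained ventricles, had 9 counts in NTG, 60 in control, 22 in dC10mut and 16 in tt. Control was 6.44-fold above NTG (log2 2.69, interval 1.67 to 3.88), and the antisense gene Gm13054 overlaps it. The other measured natriuretic and stress genes did not meet the rule. Of 20 listed, 7 were measured, and the rest had fewer than 10 counts in both control libraries. Among the 7 measured, 2 were higher, beside 5.72% of all genes, and none lower, with a median of 0.15. The chaperone Hspb7 had 192 and 220 counts, the cardiac actin gene Actc1 906 and 1083, and Xirp1, an intercalated-disc protein, 43 and 30. Nppb, the other ventricular natriuretic peptide gene, has 2 transcripts in the files and was at 0 in all 4 libraries, which was not read as absence.

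Because atria make Nppa at rest, atrial markers are given beside it. Of 12 atrial markers 4 had a count, and their summed counts were 89 in NTG and 147 in control, of which Nppa itself gave 9 and 60. Clu, expressed in atria and elsewhere, had 75 and 85. Myl4, Myl7, Sln, Bmp10, Stard10 and Dkk3 were at 0 in every library, so these markers did not measure atrial content. The share of atrium in the pools was not tested.

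The promoters of Nppa and Ankrd1 are shown because these genes were the clearest stress-gene differences. The sequences are the 250 bases before the annotated start in RefSeq (GRCm38.p6), 5′ to 3′ on the gene's strand. Capitals mark 3 motifs searched on both strands. The first, TATAAA, is the box bound by the general transcription machinery. The second, AGATAA, is a site of GATA factors. The other, CATTCC, is the element bound by TEAD factors.
Nppa, chr4:148000472-148000721, plus strand: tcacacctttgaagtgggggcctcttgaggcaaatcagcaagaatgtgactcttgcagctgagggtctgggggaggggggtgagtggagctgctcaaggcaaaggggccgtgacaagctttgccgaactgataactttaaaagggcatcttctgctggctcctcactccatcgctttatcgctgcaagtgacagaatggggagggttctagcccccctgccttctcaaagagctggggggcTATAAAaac
Ankrd1, chr19:36119845-36120094, minus strand: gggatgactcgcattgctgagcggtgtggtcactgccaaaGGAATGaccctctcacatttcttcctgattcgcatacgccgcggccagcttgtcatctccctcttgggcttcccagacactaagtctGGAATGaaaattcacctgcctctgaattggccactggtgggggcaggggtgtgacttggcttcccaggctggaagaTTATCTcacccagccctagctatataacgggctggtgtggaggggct
The Nppa window held 1 TATAAA and the Ankrd1 window held 1 AGATAA and 2 CATTCC matches, these 3 on the complementary strand. Of 32851 promoter windows of this length, 12.4% held TATAAA, 9.99% held AGATAA and 12.6% held CATTCC. These are matches of letters in the reference sequence, with no measurement of binding and no sequence of either strain.

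The motor proteins of the sarcomere showed a difference in a noncoding row. Mhrt, the antisense RNA of the myosin heavy chain locus, had 1778 counts in NTG and 698 in control, a 2.64-fold lower level (log2 -1.40, interval -1.53 to -1.27). In the mutant hearts it had 6620 counts in dC10mut and 447 in tt, so both C57BL/6-labelled libraries exceeded both FvB/N-labelled ones. Mhrt lies opposite Myh7, the slow beta-myosin gene, whose own row had 27, 20, 11 and 20 counts in NTG, control, dC10mut and tt. Reads of Mhrt and of the myosin gene opposite cannot be told apart here. The other measured heavy chains did not meet the rule: Myh7b had 70 and 68 counts (opposite Trpc4ap) and the nonmuscle chain Myh9 had 27 and 21. All 4 measured members had negative ratios, with a median of -0.45.

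The remaining sarcomere genes lay within 2-fold. The regulatory light chain Myl2, the largest of them, had 2405 counts in NTG and 2556 in control (log2 0.04, interval -0.04 to 0.12). Mybpc3 had 344 and 266 counts, with 368 in dC10mut and 412 in tt, and its level in control was 1.34-fold lower than in NTG (log2 -0.42, interval -0.66 to -0.19). That interval excludes equality while the size stays under the 2-fold limit, and the count does not separate alleles or a transgene's RNA. Of 7 thin-filament genes, 6 had positive ratios and none met the rule, with a median of 0.34. Troponin C (Tnnc1) had 357 and 613 counts, a 1.66-fold higher level in control (interval 0.54 to 0.92 in log2), and the actin-nucleating leiomodin Lmod3 had 32 and 66. Troponin I (Tnni3) was nearer, with 783 and 949.

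An M-band gene went the other way without reaching 2-fold. Myom2, an M-band protein that ties thick filaments together, had 165 counts in NTG and 88 in control, 1.94-fold lower (log2 -0.96, interval -1.35 to -0.58), and met the rule only under TMM or median-of-ratios scaling. In the mutant hearts it had more counts in tt than in dC10mut, 217 against 134. Of 6 measured titin and M-band genes, 3 had positive ratios, with a median of -0.13. None of 12 Z-disc, desmin and junction genes met the rule, and their median was 0.02 (-0.11 with TMM scaling). Desmin had 204 and 292 counts (opposite Gm15179), and Cryab, the small heat shock protein that guards desmin, had 861 and 851 (opposite Hspb2).

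Calcium-cycling genes included 2 higher members of 8 measured, beside 5.72% higher among all genes, with a median of 0.43. Both rest on few counts. Srl encodes sarcalumenin, a calcium-binding protein of the sarcoplasmic reticulum, and had 4 counts in NTG and 18 in control. Casq1, the calsequestrin best known from skeletal muscle, had 10 and 28 (opposite Gm17224). The release channel Ryr2 did not differ by the rule, with 129 and 141 counts (log2 0.08, interval -0.28 to 0.43). The histidine-rich calcium-binding protein Hrc had 595 and 472.

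Ion channel genes held 3 lower members of 8 measured and no higher one, beside 3.15% lower among all genes and 4.2% among those with an opposite-strand exon. They had the lowest median of any list with 5 or more measured members (-0.52). Kcnj11 encodes the pore of the ATP-sensitive potassium channel and had 32 counts in NTG and 15 in control. Scn4b, a sodium channel beta subunit, had 13 and 4, and Kcnq1, the delayed-rectifier potassium channel, had 10 and 2. Kcnq1 lies opposite Kcnq1ot1. These rest on few counts, with intervals of -2.13 to -0.22, -3.82 to -0.06 and -5.60 to -0.14 in log2. Connexin 43 (Gja1) had 58 and 80 counts. Gm9899, a noncoding row opposite the potassium channel gene Kcnk3, had 160 counts in NTG and 73 in control.

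Genes of pyruvate use were higher in control in 2 of 15 measured cases, beside 5.72% of all genes. Ratios were positive in 13, beside 63.2% of all genes without an opposite-strand exon and 49.0% of those with one. The median was 0.31. Dlat is the acetyltransferase core of the pyruvate dehydrogenase complex. It had 37 counts in NTG, 103 in control, 74 in dC10mut and 94 in tt, so NTG lay below the other 3. The ratio of control to NTG was 2.69-fold (log2 1.43, interval 0.87 to 2.01). Pdhx, which anchors dihydrolipoamide dehydrogenase to the complex, had 11 and 26 counts and lost its call with TMM scaling. The kinase Pdk4, which shuts the complex off, had 78 and 113, and the lactate and pyruvate carrier Slc16a1 had 28 and 60, the latter counted as higher with library totals but not with TMM scaling (log2 0.92). In the citrate cycle, Dlst, the acetyltransferase-like core of the oxoglutarate dehydrogenase complex, had 34 and 71 counts. Dlst was the 1 higher member of 16, beside 5.72% higher among all genes. It too lost its call with TMM (log2 0.88), and the list median was 0.21. Idh2, mitochondrial isocitrate dehydrogenase, had 254 and 175, a ratio of -0.59 in log2.

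Fatty acid oxidation genes were balanced. Of 20 measured, 10 had positive ratios, 1 was higher, beside 5.72% of all genes, and none was lower. The median was 0.07, which becomes -0.06 with TMM scaling. The higher member was Hsd17b4, the peroxisomal multifunctional enzyme, with 5 and 20 counts. Long-chain acyl-CoA dehydrogenase (Acadl) had 197 and 286 counts, and the medium-chain enzyme (Acadm) had 160 and 165. The thioesterase Acot13 had 89 and 166, 1.80-fold higher. Lipoprotein lipase (Lpl), which frees fatty acids from circulating lipoproteins, had 976 and 1107. None of 11 genes that break down ketone bodies and branched-chain amino acids met the rule, and their median was 0.48. Ratios were positive in 10, beside 63.2% of all genes without an opposite-strand exon and 49.0% of those with one. Members of this list include the ketone-using transferase Oxct1 with 130 and 184 counts (opposite BC037032) and Ivd, isovaleryl-CoA dehydrogenase, with 25 and 46.

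Few respiratory chain genes met the rule, while most had positive ratios. Of 50 measured members of complexes I to V, 2 were higher, beside 5.72% of all genes, none was lower, 42 had a positive ratio, and the median was 0.28. Over all genes, ratios were positive for 63.2% of those without an opposite-strand exon and 49.0% of those with one. With TMM scaling, positive ratios remained for 14 of 21 complex I genes and 20 of 29 genes of the other complexes. Over the 34 members without an opposite-strand exon the median was 0.26, beside 0.21 for all genes of that class. Both higher members belong to complex I, namely Ndufb6 with 10 and 25 counts (opposite Smim27) and Ndufc2 with 8 and 20, and Ndufc2 lost its call with TMM scaling. Larger rows lay closer, as for the ATP synthase subunit Atp5b with 575 and 629 counts and the cytochrome oxidase subunit Cox7b with 190 and 220. Between the mutant hearts, where tt carries the FvB/N label, 6 of these 50 genes had a positive ratio, with a median of -0.50. Most of these ratios were thus positive between the control libraries and negative between the mutant libraries of the same labels. Assembly factors had a median of 0.56, and 2 of 9 measured were higher, beside 5.72% of all genes. These were Coa5 (6 and 19 counts) and Coa6 (7 and 27, opposite Tarbp1), both needed to build cytochrome oxidase.

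The mitochondrial exchange of ATP and ADP was represented by 2 carriers. Slc25a4, the heart form of the ADP/ATP translocase, had 444 counts in NTG and 781 in control, 1.70-fold higher (log2 0.76, interval 0.59 to 0.94). Slc25a5, the more widely expressed form, had 5 and 18 counts and met the rule. Mitochondrial creatine kinase (Ckmt2, opposite 1700119I11Rik) had 294 and 453. All of these counts were larger in control than in NTG, while in the mutant hearts each gene had fewer counts in tt than in dC10mut.

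Ribosomal protein genes were higher in 6 of 56 measured cases and lower in none, beside 5.72% higher among all genes and 8.38% among those without an opposite-strand exon. Their median was 0.40, and 39 ratios were positive. The cytosolic ones higher in control were Rps15a (5 and 17 counts) and Rpl36 (2 and 11). The mitochondrial ones were Mrps15 (11 and 25), Mrpl13 (10 and 26, opposite Mtbp), Mrpl45 (7 and 20) and Mrpl34 (3 and 13), of which Mrps15 lost its call with TMM. Between the mutant hearts 17 of 50 measured ribosomal genes had a positive ratio, with a median of -0.40. Exonic length went with the ratio only weakly, with a Spearman rho of -0.11 over 1012 genes without an opposite-strand exon, as a description across genes. Of 25 lists with 5 or more measured members, 23 had a positive median and 20 lay above the median of all genes. With TMM scaling 20 medians were positive.

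**Figure D3:**
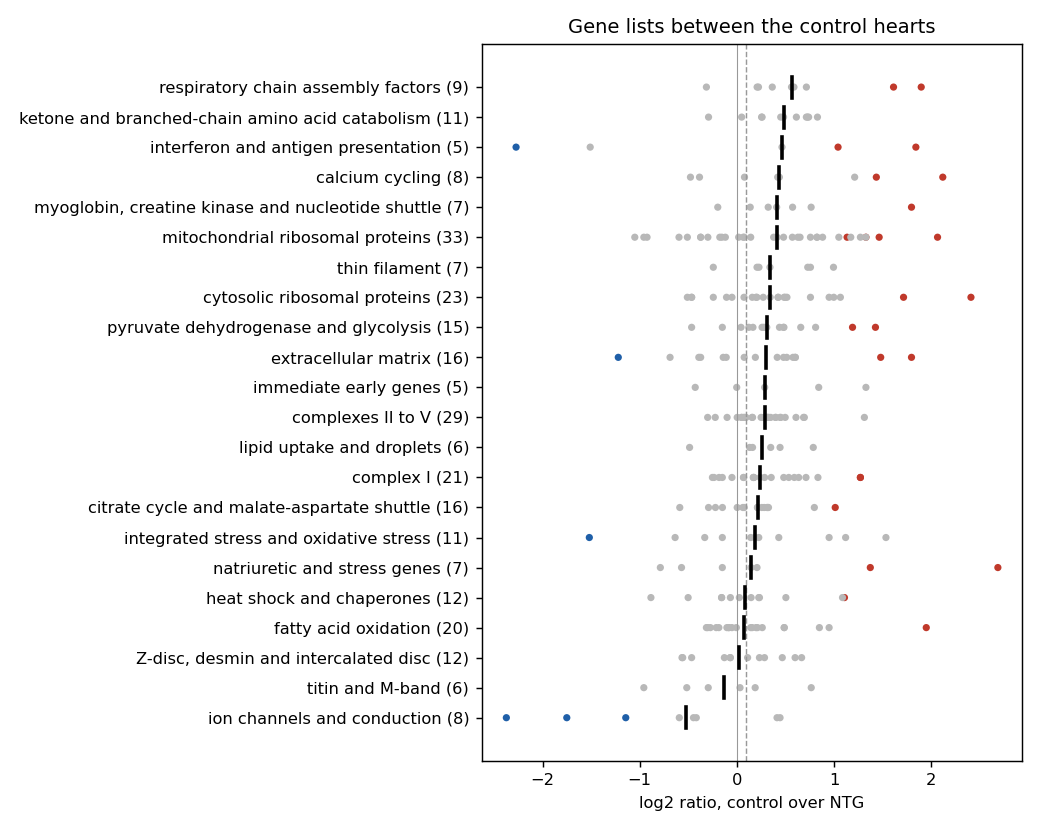
Log2 ratio of control over NTG (x axis) for each measured member of the pathway lists with 5 or more measured members (y axis, number in parentheses); red and blue points met the rule, black bars are medians, the dashed line is the median of all genes, 0.10. Ion channel genes lie lowest with a median of -0.52, and assembly factors highest with 0.56.

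Genes of vessels, connective tissue and immune cells were mostly low in counts, and those that met the rule were mostly higher in control. Ptgds, prostaglandin D synthase, had 16 counts in NTG, 55 in control, 59 in dC10mut and 35 in tt, so NTG was the lowest. The ratio was 3.32-fold (log2 1.73, interval 0.91 to 2.63). Aqp1, the water channel of endothelium, had 8 counts in NTG and 30 in control, beside 29 and 17 in dC10mut and tt. It was the 1 of 5 measured endothelial markers that met the rule, beside 8.87% of all genes. Ratios were positive in 4 of the 5, with a median of 0.35. Fabp4, a fatty acid carrier of capillaries, had 154 and 203 counts, and the growth factor receptors Kdr and Flt1 had 23 and 27 and 8 and 16. Cdh5, the junction cadherin of endothelium, had the negative ratio, with 39 and 25. The 10 endothelial markers with a count in a control library, of 19, summed to 247 and 313. Acta2, smooth muscle actin, had 6 and 24 counts, while the pericyte marker Rgs5 had 65 and 95 and the smooth muscle protein Tagln 28 and 36 (opposite Gm48529 and Pcsk7). The 11 pericyte and smooth muscle markers with a count, of 15, summed to 365 and 511.

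Of 16 matrix genes, 2 were higher and 1 was lower, beside 5.72% and 3.15% of all genes. Mgp, the matrix Gla protein that inhibits calcification, had 9 counts in NTG and 26 in control. Fstl1, a secreted glycoprotein of stromal cells, had 5 and 18. Col4a2, a basement-membrane collagen, was lower, with 36 and 16 counts, and it lies opposite Col4a1 and Gm15419. The fibrillar collagen Col3a1 had 23 and 34. The 4 measured fibroblast markers had positive ratios with a median of 0.45, and none met the rule. Summed over the 13 fibroblast markers with a count, of 14, they were 87 and 111.

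Immune genes differed in both directions. Lyz2, lysozyme of macrophages and neutrophils, had 6 counts in NTG, 28 in control, 28 in dC10mut and 5 in tt. NTG and tt were thus alike, and control and dC10mut were alike, an arrangement that follows neither strain label nor genotype. Lyz2 was the single macrophage marker with 10 or more counts. The 10 macrophage markers with a count, of 15, summed to 21 in NTG and 56 in control, and the 9 markers other than Lyz2 gave 15 and 28 of these. B2m, the light chain of class I antigen-presenting molecules, had 23 and 49 counts and lost its call with TMM (log2 0.91). The class I-like gene H2-T22 was higher, with 7 and 26 counts (opposite A930015D03Rik). Its neighbour H2-T24 was lower, with 14 and 3. Both belong to the major histocompatibility complex, whose genes are near-identical copies that differ between inbred strains, so reads may be split between copies and their values are uncertain. Lymphocyte markers summed to 0 and 1.

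One row was almost empty in a single library. Rps18-ps4, annotated as a pseudogene of the ribosomal protein gene Rps18 at chr13:97751112-97760963, had 1 count in NTG, 641 in control, 814 in dC10mut and 665 in tt. The ratio of control to NTG was 619-fold (log2 9.27, interval 6.79 to 14.58). Since dC10mut carries the same strain label as NTG, this difference did not follow the strain label. The row lies opposite Gm10260, a retrocopy of Rps18, and the parent gene Rps18 itself had 7, 4, 6 and 3 counts in NTG, control, dC10mut and tt. The copies are shown because reads can hardly be assigned between them. The lines give bases 282 to 371 of the 459-base reading frame in the GENCODE M21 transcripts (GRCm38), with the differing bases in capitals.
Rps18: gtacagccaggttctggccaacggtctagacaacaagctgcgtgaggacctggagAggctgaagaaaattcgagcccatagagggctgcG
Gm10260: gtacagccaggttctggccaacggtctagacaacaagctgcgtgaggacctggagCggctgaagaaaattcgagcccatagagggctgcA
These 90 bases hold 2 differences, the frame holds 4, and 99.1% of 547 aligned transcript bases are identical. Values of this row are therefore uncertain as to the gene that made the RNA.

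A few other genes were nearly silent in 1 control library. Pitpnm2, a phosphatidylinositol transfer protein gene, had 42 counts in NTG and 1 in control, but 33 in dC10mut and 55 in tt, so the control library alone was low. Its log2 ratio was -5.44 (interval -10.78 to -2.89). Sycp1, a protein of the meiotic synaptonemal complex, had 15 counts in control and 0 in the other 3 libraries. That was 4.83-fold higher than in NTG with the 0 taken as 3 counts. Mmachc, a vitamin B12-processing enzyme, had 0 and 10 counts, 3.22-fold higher by the same floor, beside 9 and 8 in dC10mut and tt. Ppp1r13b, a p53-binding regulator, had 10 and 0, 3.45-fold lower by the same floor. These folds leave out the counting error of the larger count. Cyp27a1, the sterol 27-hydroxylase, had 1 count in NTG, 10 in control and 0 in both mutant libraries, a ratio of 9.66 with a log2 interval of 0.46 to 8.71. Nnt, a gene deleted in part in the C57BL/6J substrain, had 0 counts in both control libraries and gave no information on substrain.

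Of 241 noncoding genes measured, 10 were higher in control, 19 were lower and 212 did not meet the rule, with a median log2 ratio of -0.27. Of 1822 coding genes, 108 were higher and 46 lower. An opposite-strand exon was found for 202 of the 241 noncoding genes. How many of these partners are coding genes was not counted. A630019I02Rik, opposite the M-band-associated gene Cmya5, had 244 counts in NTG, 70 in control, 654 in dC10mut and 1273 in tt. Both control libraries thus lay below both mutant ones, and control was 3.61-fold below NTG (log2 -1.85, interval -2.26 to -1.46), while Cmya5 itself had 90 and 76. Malat1, a nuclear noncoding RNA found in most cells, was higher, with 22 and 61 counts (opposite Gm37376). The coding gene Slc3a1, a cystine and basic amino acid transporter subunit of kidney and gut, was lower in control, as A630019I02Rik was. It had 440 counts in NTG, 159 in control, 356 in dC10mut and 481 in tt, and it lies opposite Prepl. Control was the lowest of the 4 libraries, 2.87-fold below NTG (log2 -1.52, interval -1.79 to -1.25).

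Lower genes without an opposite-strand exon included a transcription factor and a transporter. Klf9, a glucocorticoid-responsive transcription factor, had 38 counts in NTG, 18 in control, 58 in dC10mut and 44 in tt. Slc26a6, an anion exchanger of the heart, had 53 and 25. Cpn2, a carboxypeptidase subunit made mainly by liver, had 56 and 24. Of 12 measured heat shock and chaperone genes, 1 was higher, beside 5.72% of all genes, and none was lower. Their median was 0.09 (-0.04 with TMM scaling). The small heat shock protein Hspb8 was higher in control with 26 and 58 counts, though not with TMM scaling (log2 0.98), while Hsp90ab1, an abundant cytosolic chaperone, had 380 and 278. Il6st, the shared receptor subunit of interleukin 6 family cytokines, had 12 and 29.

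The remaining lists held few measured genes. Over all 2063 genes, 5.72% were higher and 3.15% lower. Of 11 genes of the integrated and oxidative stress responses, 1 was lower, which was Slc3a1, and the median was 0.18. None of 6 genes of lipid uptake and droplets, 5 immediate early genes, 4 clock genes or 4 myosin light chain and binding protein genes met the rule, and their medians were 0.25, 0.29, 0.01 and 0.20. Of 3 growth factor and hormone genes, Ptgds was higher, and of 3 heart transcription factor genes, Klf9 was lower. Of 25 genes listed as candidates for strain differences, 2 were measured and neither met the rule: the apolipoprotein gene Apoa2 had 113 and 70 counts and the insulin-degrading enzyme gene Ide had 7 and 10.

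**Figure D4:**
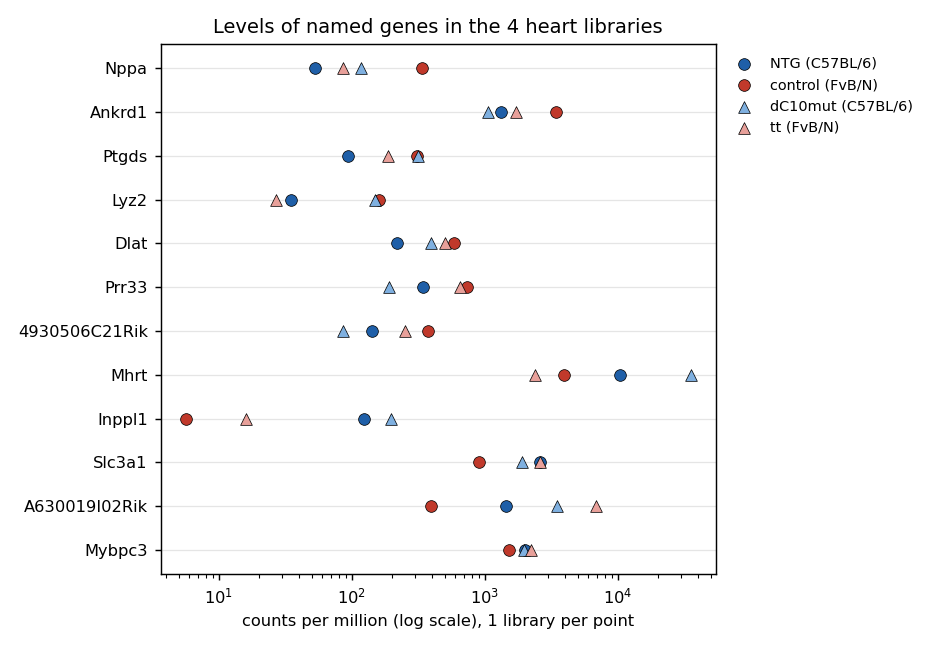
CPM of 12 genes in each of the 4 libraries (x axis, log scale), circles for control hearts and triangles for mutant hearts, blue for the C57BL/6 label and red for FvB/N. Ankrd1 and Nppa are highest in control, Mhrt and Inppl1 are higher in both C57BL/6-labelled libraries, and A630019I02Rik is lower in both control libraries.

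The mutant hearts carry the same labels and allowed a separate look at each gene, with genotype and disease added. The pairs also differed in sex-linked rows. Tsix was at 0 in NTG and control and held 147 counts in dC10mut and 159 in tt. The part of these rows in the comparison was not tested. In tt against dC10mut, 222 of 2249 genes (9.87%) met the rule, 131 higher (5.82%) and 91 lower (4.05%). No library is shared with the comparison of control hearts. Over the 1842 genes measured in both, the log2 ratios had a Pearson r of -0.033 and a Spearman rho of -0.088, and 881 (47.8%) had the same sign. Of the 183 genes that differed between the control hearts, 141 were measured in the mutant hearts, and 73 of these (51.8%) had the same sign there. The direction seen in the control hearts was therefore met about as often as its opposite.

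The genes that did meet the rule in both comparisons numbered 13 in the same direction, 7.10% of the control-heart list and 5.86% of the mutant-heart list, and 5 in opposite directions (2.73% and 2.25%). Higher under the FvB/N label in both were 8 genes. Prr33, a proline-rich muscle protein gene next to the troponin gene Tnnt3 and Lsp1 on the opposite strand, had 59 and 130 counts in the control hearts (NTG, control) and 36 and 122 in the mutant hearts (dC10mut, tt). The noncoding 4930506C21Rik, opposite the pyruvate carrier gene Mpc1, had 24 and 66, then 16 and 47. Nceh1, a neutral cholesterol ester hydrolase, had 14 and 32, then 20 and 45, and has no opposite-strand exon. Tmem65, an intercalated-disc and mitochondrial membrane protein, had 16 and 36, then 30 and 60. Casq1 had 5 and 15 in the mutant hearts, and Leng8 (opposite Leng9) had 4 and 19, then 5 and 15. Srrm4os (opposite Srrm4) had 25 and 53, then 6 and 19, and 1110002L01Rik (opposite Kif3c and Asxl2) had 26 and 65, then 16 and 37. With TMM scaling Prr33, Srrm4os and Tmem65 fell below 2-fold in the control hearts.

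Lower under the FvB/N label in both were 5 genes, of which 4 are described. Inppl1, the lipid phosphatase SHIP2 of insulin signalling, had 21 and 1 counts in the control hearts and 37 and 3 in the mutant hearts, and lies opposite Phox2a and Gm10602. Its log2 ratios were -4.44 (interval -9.81 to -1.81) and -3.62. Mhrt had the values given above, with log2 ratios of -1.40 and -3.88. Casc1 (opposite Lrmp) had 20 and 7, then 18 and 6. Xcr1, a chemokine receptor of dendritic cells, had 25 and 11, then 25 and 5, and has no opposite-strand exon. In these 13 genes, Srrm4os excepted, the 2 libraries of one label both lay above the 2 of the other in CPM. Choosing genes by both comparisons makes this pattern likely by construction, so it is no separate result. Over all 2063 genes, 17.6% showed the pattern with both FvB/N libraries above and 11.0% with both below. Among genes higher in control it held for 60 of 118 (50.8%), and among lower ones for 23 of 65 (35.4%), shares that the choice of genes by the control hearts raises by construction.

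**Figure D5:**
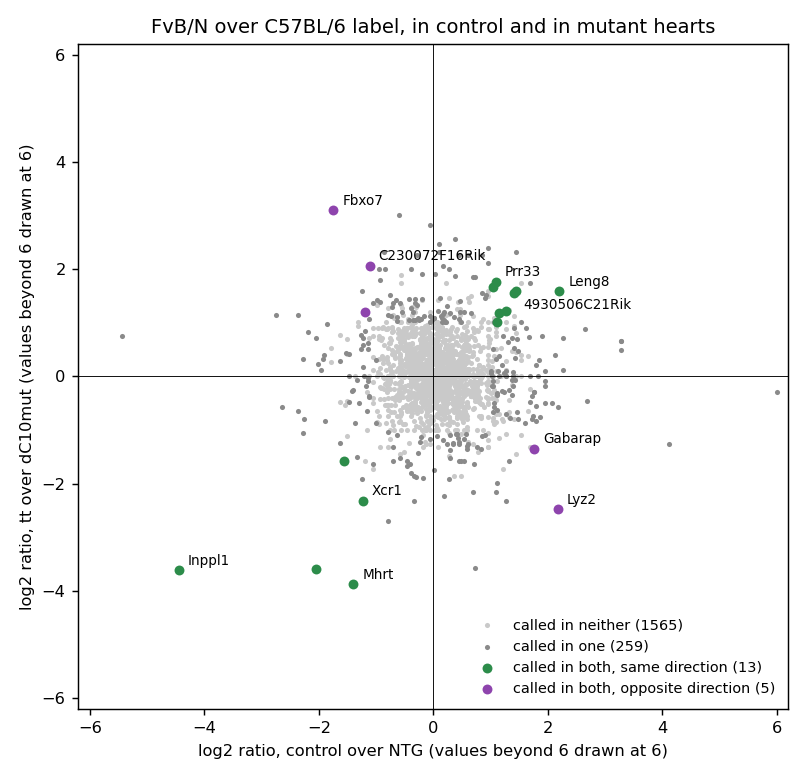
Log2 ratio of control over NTG (x axis) against tt over dC10mut (y axis) for 1842 genes, both as FvB/N over C57BL/6 label. The cloud shows no slope (Pearson r of -0.033), with 13 genes differing the same way in both (green) and 5 in opposite ways (purple).

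Differing genes were found on every chromosome with measured genes. Among the 19 chromosomes with at least 50 measured genes, the share ran from 2.74% on chromosome 14 (2 of 73) to 14.7% on chromosome 17 (16 of 109, exact 95% interval 8.63% to 22.7%), which carries the major histocompatibility complex. The interval for chromosome 17 includes the share over all genes. On chromosome 1 all 11 differing genes and on chromosome 4 all 10 were higher in control with library totals. Among all differing genes, 64.5% were higher with that scaling and 46.6% with TMM scaling.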

How the data were processed

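RNA of whole mouse hearts was sequenced after poly(A) selection with a strand-keeping kit, per the labels' protocols, in 4 libraries of 3 pooled hearts. STAR, HTSeq and the build mm10 are named in the submitters' processing notes; how reads were assigned, the strand setting and the versions are not given in the sources used here. Each deposited file lists 41449 RefSeq transcripts with whole-number counts of reads that the authors did not normalize. Of these, 41252 matched a symbol; the other 197 held between 2350 and 4133 counts per library and entered only the totals. The mm10 sequence comes from a C57BL/6 mouse, and how FVB/N variants affected alignment was not tested. Counts were summed per symbol and divided by the library total (Python 3.11.15, numpy 2.4.6, pandas 2.3.3, scipy 1.17.1). A 0 entered as the floor of 3 counts, so that its fold is a bound per library. Such a bound leaves out the counting error of the other count. Intervals are exact Clopper-Pearson conditional binomial 95% intervals, and PCR copies of a molecule are not independent, so they cover counting error only. TMM factors came from edgeR 4.0.16 (R 4.3.3). Opposite-strand exons and positions came from GENCODE M21, GRCm38. The rule was also run on simulated counts with counting error only, with folds set in genes of 50 or more counts. That run does not measure differences between pools or library preparations.

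Named genes were the sex-linked genes, Mybpc3 and Nnt, the 20 higher and 20 lower genes with the interval bound farthest from equality, list members (every one that met the rule, and up to 4 others with the largest ratios), the 10 largest rows, and the genes that met the rule in both comparisons. Others named here (among them Cyp27a1, Il6st, Slc16a1 and abundant sarcomere, metabolic and marker genes) were chosen after their values were seen. The text gives a selection of these; a few are left out of the text but enter every total. There were 29 pathway lists and 21 cell type lists; cell type lists with no measured member are mostly not described. The members and lists were chosen with earlier results of these data known. Alternatives were other scalings, minimum counts of 20 and 50, no minimum, a limit of 1.5-fold, a prior count of 0.5, single transcripts and genes without an opposite-strand exon.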

Additional observations from a re-analysis of the deposited data

Results flagged for a closer look

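In 5 genes the difference between the strain labels met the rule in both comparisons and pointed in opposite directions; the difference between the comparisons was not tested. Lyz2, lysozyme, had a log2 ratio of 2.17 for control over NTG and -2.48 for tt over dC10mut. Gabarap, an autophagy adaptor, had 1.76 (6 and 21 counts) and -1.35 (23 and 9 counts). Fbxo7, a ubiquitin ligase adaptor opposite A230060F14Rik, had -1.75 (13 and 4 counts) and 3.09 (2 and 17). The noncoding C230072F16Rik had -1.11 (23 and 11) and 2.07 (6 and 25). Bace1, the beta-secretase, had -1.20 (20 and 9) and 1.21 (10 and 23), and it lies opposite Rnf214, Gm49338 and Gm16536.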

How the results depend on the processing

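The number of genes at least 2-fold apart between the control hearts, 183, stayed within 1.5 times under TMM scaling (178), median-of-ratios scaling (175), totals without the 10 largest genes (184), no minimum count (229), single transcripts (183), a prior count of 0.5 (180) and centring each opposite-exon class on its own median (162, an alternative chosen after seeing the data). It moved to 112 with a minimum of 20 counts, 27 with 50, 109 over genes without an opposite-strand exon and 275 with a limit of 1.5-fold. For tt against dC10mut it moved from 222 to 126 with a minimum of 20. Of the 183 genes, 148 were kept under TMM, 155 under median-of-ratios scaling and 181 without the 10 largest genes. The split turned from 118 higher and 65 lower to 83 and 95 under TMM, 90 and 85 under median-of-ratios scaling and 82 and 80 with class centring. Genes met in both comparisons numbered 13, 11 with TMM and 9 with a minimum of 20. Mybpc3 stayed negative at -0.55 and -0.52. No paired analysis was possible because each group has 1 library, and for the same reason no library could be left out. A ratio from 10 counts is precise only to several fold.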
